A study of Mus musculus with 2 samples.

Results

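T cells with RNA of the interleukin 22 gene (Il22) and none of either Il17a or Il17f, called Il22-only cells here, numbered 330 of the 7396 barcodes in a pair of droplet 3′ RNA libraries from sorted mouse CD4+ YFP+ cells. They were chosen by measured UMIs (unique molecular identifiers, the marks of counted RNA molecules): a barcode belonged to them if it had at least 1 UMI of Il22 and 0 UMIs of Il17a, Il17f and Trdc, the constant region of the γδ T cell receptor. It also needed at least 1 UMI of Cd3d, Cd3e and Cd3g summed, at least 200 genes, and at most 10% of its UMIs from mitochondrially encoded genes. There were 169 Il22-only cells in the Id2-deficient library and 161 in the control library. They were set against cells with a UMI of Il17a or Il17f and none of Il22 (Il17-only cells, 50 and 163) and against cells with 0 UMIs of all 3 cytokine genes (triple-zero cells, 1469 and 3560), under the same other limits. Il22, Il17a, Il17f, Trdc and the 3 Cd3 genes chose the cells, so their values are description and are left out of every count of genes below.

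The Id2-deficient library came from Il17Cre/Id2f/f/R26YFP mice and the control library from Il17Cre/R26YFP mice, with 1 library per genotype. Both groups carried Cre recombinase driven from Il17 and the R26YFP reporter, so that YFP marked cells which had used the Il17 locus at some time, and floxed Id2 was carried by the Id2-deficient group alone. All mice had experimental autoimmune encephalomyelitis, a mouse model of multiple sclerosis started by immunizing with MOG and complete Freund's adjuvant, and cells were sorted at the peak of disease. The labels disagree on the tissue, naming draining lymph node in the titles, spleen and lymph node in the source field, and spleen in the protocol. The age, the number of mice per library, the floxed exons of Id2, and whether the Cre insertion lowers RNA from the allele that carries it are unknown from the sources used here.

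Interleukin 22 is a cytokine of the interleukin 10 family that acts mainly on epithelial cells, which bear its receptor, and leaves T cells without a direct response. In T cells Il22 is made by Th17 cells and by a separate Th22 program, downstream of interleukin 6, interleukin 23 and interleukin 1, with the transcription factors AHR, BATF and STAT3 known to support it. In autoimmune encephalomyelitis Th17 cells are a main source of both interleukin 17 and interleukin 22. With counts this sparse, 0 UMIs of Il17a and Il17f means that none were counted in that cell, not that the cell lacked the RNA.

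The Id2-deficient library held 14668624 UMIs in 2459 barcodes, and the control library 33646845 UMIs in 4937 barcodes. The limit on mitochondrial UMIs removed 525 Id2-deficient and 3 control barcodes. After all limits except those on the cytokine genes, 1718 and 3920 T cells remained. Il22-only cells had a median of 7668 and 6361 UMIs, against 8690 and 7795 in Il17-only cells and 6049 and 5269 in triple-zero cells. Their median share of mitochondrial UMIs was 4.12% in the Id2-deficient and 1.77% in the control library. Only 3 barcode sequences occurred in both libraries, and 0 of them were Il22-only cells. Id2, the targeted gene, gave 1 UMI in Il22-only cells of the Id2-deficient library and 229 in those of the control library. Since each genotype is 1 library, differences have no replicate check and no test was made. Every interval below is a 95% interval that covers counting error only, and UMIs of cells in 1 library are not independent samples of a genotype.

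Il22-only cells made up 9.84% of the gated T cells in the Id2-deficient library (169 of 1718, Clopper-Pearson interval 8.47% to 11.3%) and 4.11% in the control library (161 of 3920, interval 3.51% to 4.78%). The Id2-deficient library had the higher share, and the counting intervals do not overlap. Cells with more UMIs have more chances to show Il22, so each cell was also thinned to 2000 random UMIs before the same limits were applied. The share was then 3.78% in the Id2-deficient library (65 of 1718, interval 2.93% to 4.80%) and 1.71% in the control library (70 of 4096, interval 1.33% to 2.15%), with 16 and 27 shallower cells left out. Cells that lost their Trdc or Il17 UMIs in thinning could enter, so these are not the same cells at equal depth. Before thinning, 168 Id2-deficient and 880 control cells had a Trdc UMI. The control base was 3920 cells before and 4096 after thinning, and the Id2-deficient base 1718 both times. In cells of 3000 to 10000 UMIs the share was 8.73% in the Id2-deficient and 3.59% in the control library. By point value Il17-only cells stood the other way round, at 2.91% (interval 2.17% to 3.82%) in the Id2-deficient and 4.16% (interval 3.55% to 4.83%) in the control library. These counting intervals overlap. The Il17-only group also leaves out cells with Il22, which were 30 of 80 Id2-deficient and 36 of 199 control cells with an Il17 gene. In the Id2-deficient library 13 more barcodes with Il22 were lost to the mitochondrial limit, against 0 in the control library; with no limit on genes or mitochondrial UMIs the shares were 8.92% and 4.11%.

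Most Il22-only cells rested on a lone Il22 UMI. Of the Id2-deficient cells, 106 (62.7%) had 1 Il22 UMI, 28 had 2, 30 had 3 to 9, and 5 had 10 or more. Of the control cells, 118 (73.3%) had 1, 19 had 2, 23 had 3 to 9, and 1 had 10 or more. The highest Il22-only cell had 48 Il22 UMIs in the Id2-deficient and 21 in the control library. Just outside the rule, 15 Id2-deficient and 19 control cells had Il22 and exactly 1 UMI of Il17a and Il17f together. Cells with both Il22 and an Il17 gene numbered 30 and 36, and 1 of the control cells held 420 Il22 UMIs, which was 52.4% of all Il22 UMIs of that library. At a threshold of 2 Il22 UMIs, 63 Id2-deficient cells (3.67%) and 43 control cells (1.097%) would remain.

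Free RNA in the droplets can give a cell a UMI of a gene it does not use, so the same question was put to barcodes with B cell genes (at least 2 UMIs of Cd79a and Ms4a1 together, and no Cd3 UMI). None of 33 such barcodes in the Id2-deficient and 37 in the control library had an Il22 UMI, which allows a share of up to 9.09% and 8.11%. Their median depth was 4954 and 3638 UMIs, lower than that of Il22-only cells, and their small number leaves these limits wide. The share of Il22-only cells lies near that limit in the Id2-deficient library, at 9.84%, and under it in the control library, at 4.11%. The limit is for any Il22 UMI, though. Gated cells with Il22, with or without Il17 RNA, numbered 199 of 1718 and 197 of 3920. Being few and shallower, the barcodes with B cell genes cannot set the background apart from the signal. Il22 was found more often where Il17 RNA was also found. In the Id2-deficient library 37.5% of cells with an Il17 gene had Il22 (30 of 80, interval 26.9% to 49.0%), against 10.3% of cells with neither Il17 gene (interval 8.89% to 11.9%). The control shares were 18.1% (36 of 199) and 4.33% (interval 3.70% to 5.03%). Cells with both cytokines were also the deepest, with medians of 13548.5 and 10678.5 UMIs, and the part of depth in this was not tested.

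**Figure D1:**
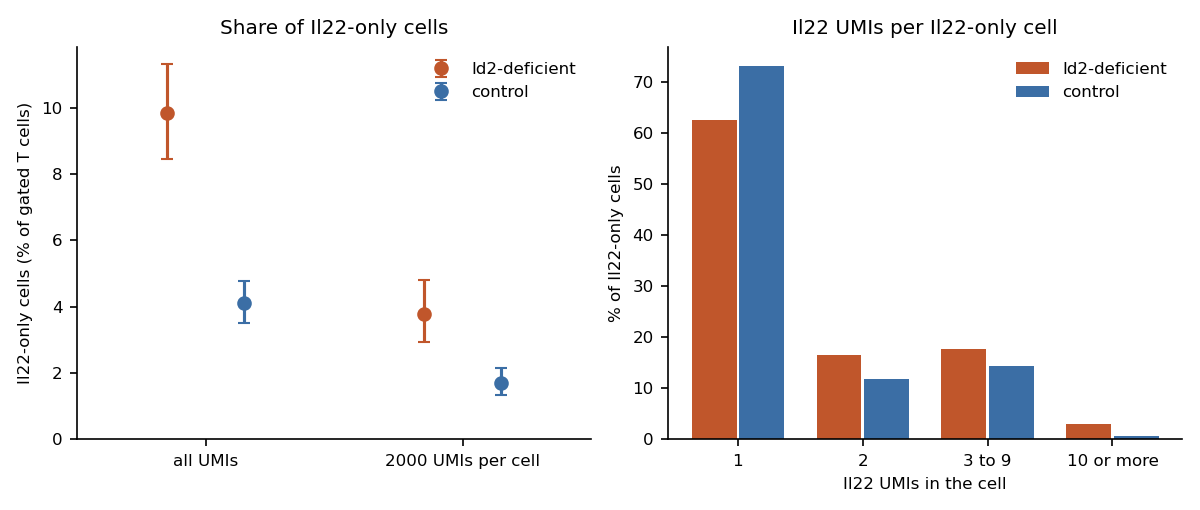
Left, the share of gated T cells that were Il22-only cells in each library (y axis, percent), with all UMIs and with each cell thinned to 2000 UMIs before gating; points are single libraries and bars are 95% Clopper-Pearson intervals for counting error. Right, the percent of Il22-only cells with 1, 2, 3 to 9, or 10 or more Il22 UMIs; cells with 1 UMI are 62.7% of the Id2-deficient and 73.3% of the control Il22-only cells.

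The mouse genome of the reference strain holds a close copy of Il22, named Iltifb, and its UMIs were not part of the rule. Il22 lies at chr10:118204942-118210047 on the plus strand and Iltifb at chr10:118289629-118295038 on the minus strand (GRCm38, GENCODE M21), 79.58 kb apart at their nearest ends, each with 5 exons. Their coding sequences are 540 bases each and differ at 9, an identity of 98.33%. The 3′ untranslated regions, from which a 3′ library mostly reads, are 521 and 522 bases and differ at 17 bases and 1 gap. Of all stretches of 91 bases in the 3′ untranslated region of Il22, 12.1% occur unchanged in that region of Iltifb. Of those in the whole Il22 transcript, 23.7% occur unchanged in the whole Iltifb transcript. A read from such a stretch cannot be assigned to either gene, and the treatment of reads that match both is unknown from the sources used here. The coding part of the last exon, at chr10:118209449-118209526 (plus strand) in Il22 and chr10:118290151-118290228 (minus strand) in Iltifb, is shown because it carries the few letters by which a read near the end of the coding sequence can tell the genes apart. Capitals mark the 3 of 78 bases that differ, and both are written 5′ to 3′ along the gene.
Il22: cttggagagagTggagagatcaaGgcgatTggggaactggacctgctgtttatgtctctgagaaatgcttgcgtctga
Iltifb: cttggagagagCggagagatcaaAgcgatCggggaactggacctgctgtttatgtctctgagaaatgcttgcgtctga

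Iltifb RNA was found in a larger share of cells with Il22 RNA than of cells without it. It had a UMI in 30.8% of Il22-only cells of the Id2-deficient library (52 of 169, interval 23.9% to 38.3%), against 14.0% of Il17-only cells (7 of 50) and 6.74% of triple-zero cells (99 of 1469). Among control cells it had a UMI in 25.5% of Il22-only cells (41 of 161, interval 18.9% to 32.9%), against 10.4% of Il17-only cells (17 of 163) and 2.50% of triple-zero cells (89 of 3560). Il22-only cells were above both other groups in each library, and 0 of the 33 and 37 barcodes with B cell genes had Iltifb. After thinning to 2000 UMIs the shares were 11.2% of Il22-only and 1.86% of triple-zero cells in the Id2-deficient library, and 9.94% and 0.962% in the control library. Summed over cells, Iltifb stood at 68.8 CPM (UMIs per 1000000) in Il22-only cells, 20.7 CPM in Il17-only cells and 13.3 CPM in triple-zero cells of the Id2-deficient library. The control values were 67.5, 13.8 and 5.27 CPM, so the log2 ratio of Il22-only over triple-zero cells was 2.38 (interval 2.00 to 2.75) in the Id2-deficient and 3.68 (interval 3.27 to 4.08) in the control library. Since a read of Il22 may have been counted under Iltifb, and the reverse, this is not an independent sign that the cells used the locus.

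The share with Iltifb differed with the number of Il22 UMIs. With Id2 deficiency it was 20.8% of Il22-only cells with 1 Il22 UMI (22 of 106), 25% with 2 (7 of 28) and 65.7% with 3 or more (23 of 35). The control shares were 18.6% (22 of 118), 31.6% (6 of 19) and 54.2% (13 of 24). Even the cells with 1 Il22 UMI were above the triple-zero cells of their library. Depth moved with these levels, with median UMIs of 6910, 7880 and 11421 in the Id2-deficient and 6237, 6588 and 8719 in the control library, and its part was not tested. Counting Il22 and Iltifb together in every limit, an alternative chosen after seeing the data, gave a share of Il22-only cells of 15.6% in the Id2-deficient and 6.38% in the control library. Of the other genes listed around the locus only Rap1b, a small GTPase of integrin activation, was abundant enough to compare, with log2 ratios to triple-zero cells of 0.21 and −0.32.

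**Figure D2:**
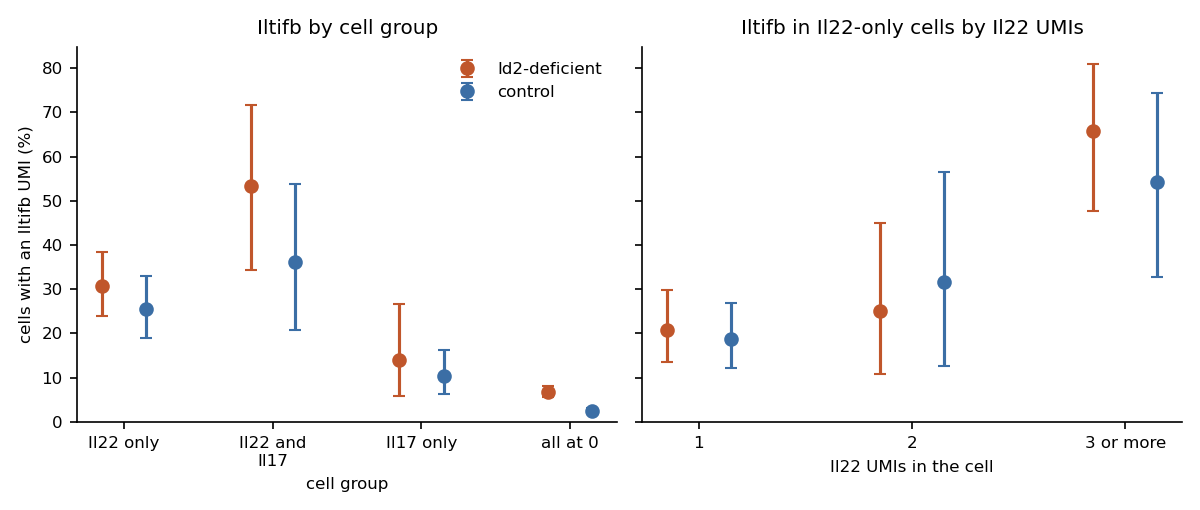
Percent of cells with at least 1 Iltifb UMI (y axis), by cell group on the left and by the number of Il22 UMIs among Il22-only cells on the right, in the Id2-deficient and the control library; bars are 95% Clopper-Pearson intervals for counting error. Il22-only cells stand at 30.8% and 25.5%, above the Il17-only cells (14.0% and 10.4%) and the triple-zero cells (6.74% and 2.50%).

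The identity of Il22-only cells was read from markers that were not part of the rule. Trac, the constant region of the T cell receptor α chain, had a UMI in 100% of them in the Id2-deficient and 97.5% in the control library, and Cd4 in 85.2% and 74.5%. UMIs of Tcrg-C1, Tcrg-C2 or Tcrg-C4, constant regions of the γ chain, were in 3.55% and 8.70% of Il22-only cells, against 12.0% and 25.8% of Il17-only cells and 3.88% and 8.57% of triple-zero cells. Of the 10 markers of γδ T cells found in the tables, 6 had a UMI in Id2-deficient Il22-only cells and 8 in control ones. Sox13 and Tcrg-V6, which mark γδ T cells that make interleukin 17, were at 0 in both, while Tcrg-V4 had a UMI in both. Tcrg-V6 was also at 0 in Il17-only cells of both libraries, and Sox13 in those of the Id2-deficient library. These zeros therefore do not set Il22-only cells apart. The summed level of the 10 markers was 627 and 391 CPM in Il22-only cells. It was 712 and 498 CPM in Il17-only cells and 566 and 318 CPM in triple-zero cells. The list includes Maf, which Th17 cells also use. Ncr1, a receptor of natural killer and innate lymphoid cells, Foxp3 of regulatory T cells and Il10 were each found in 0 of 169 and 0 of 161 Il22-only cells, which allows a share of cells with a UMI of up to 1.78% and 1.86% (3 cells of the total) and sets no limit on cells that use the gene at a lower level.

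Ccr6, a chemokine receptor of Th17 cells, had a UMI in 53.8% of Il22-only cells of the Id2-deficient and 63.4% of the control library. This lies between the Il17-only cells, at 68.0% and 77.3%, and the triple-zero cells, at 34.9% and 35.7%. Thinned to 2000 UMIs, the Ccr6 shares were 27.8% and 32.3% in Il22-only cells, 28.6% and 33.7% in Il17-only cells, and 17.7% and 18.5% in triple-zero cells, so the counting intervals of Il22-only and Il17-only cells overlapped and those of triple-zero cells lay below the Il22-only ones. Il23r, the interleukin 23 receptor, was found in 16.6% and 14.9% of Il22-only cells, against 34.0% and 16.0% of Il17-only and 9.26% and 6.94% of triple-zero cells. At least 1 of Cxcr5, Bcl6 and Il21, genes of the follicular helper T (Tfh) cells that help B cells, was found in 53.8% of Il22-only cells of the Id2-deficient library, against 32.0% of Il17-only and 44.5% of triple-zero cells. Among control cells it was found in 35.4% of Il22-only cells, against 11.04% of Il17-only and 11.3% of triple-zero cells. Thinned, these shares were 23.1%, 16.3% and 23.3% in the Id2-deficient library, where the counting intervals overlap, and 14.9%, 4.91% and 5.97% in the control library, where the interval of Il22-only cells lay above both others. Of 8 neutrophil markers 2 were found in Id2-deficient and 5 in control Il22-only cells, with Ly6g, Mpo and Elane at 0 in both. Their summed level was 2.50 and 39.2 CPM in Il22-only cells, 0 and 20.5 CPM in Il17-only cells, and 2.31 and 1961 CPM in triple-zero cells, where the control library stood far above the rest. By share of cells with such a UMI, control Il22-only cells were highest, at 26.7%, against 18.4% of Il17-only and 16.4% of triple-zero cells. The Id2-deficient shares were 0.592%, 0% and 1.57%. The source of these UMIs and the part of depth were not tested.

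Compared with Il17-only cells, Il22-only cells had less RNA of 4 of 7 Th17 receptor and surface genes, of Capg and of Cxcr6, and more of Tox2, Pdcd1 and Izumo1r. A gene was compared if its mean over the 4 sums was at least 50 CPM, which held for 2688 genes, and was counted if it was at least 1.5-fold higher, or lower, in both libraries. By this rule 45 genes (1.67%) were higher and 40 (1.49%) lower in Il22-only cells. In the Id2-deficient library alone 214 (7.96%) were higher and 132 (4.91%) lower, and in the control library alone 103 (3.83%) and 72 (2.68%), and the median log2 ratio of all 2688 was 0.04 in the Id2-deficient and 0.02 in the control library.

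Among Th17 receptor and surface genes 4 of 7 were lower in both libraries, with list medians of −0.99 in the Id2-deficient and −0.66 in the control library. Tmem176a and Tmem176b, membrane proteins abundant in Th17 cells, were among them. Tmem176a had 211 CPM in Il22-only and 698 CPM in Il17-only cells of the Id2-deficient library, and 477 and 876 CPM in the control library, log2 ratios of −1.72 and −0.88. Tmem176b had log2 ratios of −1.61 and −0.73. Il17re, a receptor for interleukin 17C, and Ltb4r1, a receptor for leukotriene B4, were the others, at −1.20 and −0.66 for Il17re and −0.99 (interval −1.97 to 0.04) and −1.099 for Ltb4r1. Il18r1, the interleukin 18 receptor, was at −0.88 and −0.41, and Ccr6 at −0.82 and −0.15. Il1r1, the interleukin 1 receptor, was at −0.09 and 0.27, with 79.4 against 84.7 CPM in the Id2-deficient and 71.8 against 59.6 CPM in the control library. Il23r was too scarce to count. It had 43 UMIs in Il22-only and 28 in Il17-only cells of the Id2-deficient library and 27 and 33 in the control library. The group totals were 1599712 and 484226 UMIs in the Id2-deficient and 1378669 and 1662342 in the control library. The raw counts of unlike groups therefore cannot be read as levels.

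Th17 transcription factors did not separate the groups in both libraries: of 8 measured, 0 passed 1.5-fold both times in either direction, and the list medians were 0.25 and −0.13. Hif1a, the oxygen-sensing factor that supports the Th17 program, was at 0.80 and 0.35. Batf, an AP-1 factor needed for Th17 cells, was at 0.42 and 0.14. Maf, Rora, Runx1, Ikzf3 and Stat3 lay between −0.53 and 0.55 in the 2 libraries, and Stat3 changed sign between them, at 0.55 (interval −0.05 to 1.21) and −0.53 (interval −1.02 to −0.05). Ahr, which drives Il22, was under the limit on abundance. It had 72 UMIs in Il22-only and 22 in Il17-only cells of the Id2-deficient library and 50 and 112 in the control library. These raw counts also come from groups of unlike totals, 1599712 and 484226 UMIs in the Id2-deficient and 1378669 and 1662342 in the control library.

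Several of the lowest genes in Il22-only cells are known from effector T cells in tissue. Capg, which caps actin filaments, had 131 CPM in Il22-only and 522 CPM in Il17-only cells of the Id2-deficient library, and 232 and 609 CPM in the control library. Its log2 ratios were −1.99 (interval −2.26 to −1.72) and −1.39 (interval −1.58 to −1.21). Cxcr6, a chemokine receptor of tissue-resident T cells, had 98.1 and 369.7 CPM in the Id2-deficient and 209 and 481 CPM in the control library, ratios of −1.91 and −1.20. The adhesion molecule Jaml was at −1.98 and −1.82, and the aminopeptidase Aopep at −1.37 and −1.03. Galectin 1 (Lgals1) was at −0.83 and −0.82 and vimentin (Vim), a filament protein, at −1.06 and −0.74. Both are in a list of 13 measured S100, galectin, annexin and related genes, of which 4 were lower and 0 higher in both libraries, with medians of −0.83 and −0.58; S100 and annexin proteins bind calcium and move with effector differentiation. 5830411N06Rik, listed by RefSeq also as Scart2, a scavenger receptor of γδ T cells, was at −1.78 and −3.21. At full depth a larger share of Il17-only cells held γ chain UMIs. The comparison was therefore repeated without cells with such UMIs, an alternative chosen after seeing the data. 5830411N06Rik was then at −1.68 and −2.36, Capg at −1.999 and −1.38, and Cxcr6 at −1.92 and −1.27.

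Among genes higher in Il22-only cells, Tox2, a transcription factor of the Tfh program, had 139 CPM in Il22-only and 62.0 CPM in Il17-only cells of the Id2-deficient library, a log2 ratio of 1.17 (interval 0.62 to 1.77). The control values were 76.9 and 16.2 CPM, a ratio of 2.24 (interval 1.62 to 2.91). P2rx7, an ATP-gated channel, was at 1.38 and 1.15, but thinned to 2000 UMIs at 2.53 and −0.98. Tbc1d4, which regulates traffic of glucose transporters, was at 1.22 and 1.05 (thinned, 1.79 and −0.53), Nsg2, a vesicle protein best known from neurons, at 1.101 and 2.14, and Camk2d, a calcium-dependent kinase, at 0.94 and 1.25. Marcksl1, which binds actin at the membrane, was at 1.20 and 0.90 (thinned, 1.43 and −0.98), and Ptprc (CD45) at 0.61 and 0.56, just under 1.5-fold in the control library. Izumo1r, a folate receptor of regulatory, anergic and follicular T cells, was the highest of its list, with 164 and 43.4 CPM in the Id2-deficient and 82.7 and 7.22 CPM in the control library, ratios of 1.92 and 3.52. Of the 9 measured Tfh genes, 2 were higher in both libraries, Tox2 and Pdcd1 (the receptor PD-1, at 0.92 and 1.21), and 0 were lower; the medians were 0.31 in the Id2-deficient and 1.21 in the control library. Cxcr5, the receptor that brings T cells to follicles, had 170 UMIs in Il22-only and 17 in Il17-only cells of the Id2-deficient library, a log2 ratio of 1.60. In the control library it had 58 UMIs in Il22-only cells and 0 in Il17-only cells, a log2 ratio of at least 4.54 against a floor of 3 UMIs over that group. Tyms, thymidylate synthase of dividing cells, was at 1.72 and 0.81, but in cells of 3000 to 10000 UMIs at 1.24 and −1.004.

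**Figure D3:**
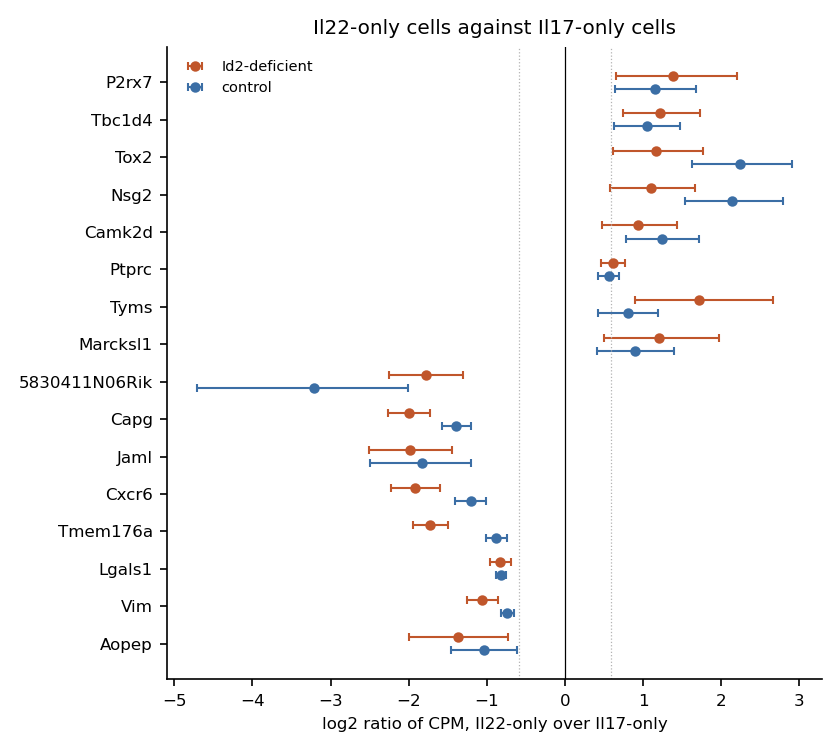
Log2 ratio of CPM, Il22-only over Il17-only cells (x axis), for the 8 genes with the highest and the 8 with the lowest bounds in the worse of the 2 libraries; points are single libraries, bars are exact 95% intervals for counting error, and dotted lines mark 1.5-fold. Tox2 and Nsg2 lie farther right in the control library, and Capg, Cxcr6 and Tmem176a farther left in the Id2-deficient library.

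Compared with triple-zero cells, Il22-only cells had less RNA of Nkg7, Ccl5, Il7r and Klf2, and of the Th17 genes Batf and Il1r1 were higher in both libraries. RNA of cell division genes was higher with all cells compared, but the list medians were 0.02 and −0.02 in cells of 3000 to 10000 UMIs. Of 2701 genes compared, 56 (2.07%) were at least 1.5-fold higher and 27 (1%) lower in both libraries, and the median log2 ratios of all were 0.04 in the Id2-deficient and 0.07 in the control library. Alone, the Id2-deficient library gave 89 (3.3%) higher and 55 (2.04%) lower genes, and the control library 129 (4.78%) and 80 (2.96%).

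Batf was 1 of 8 measured Th17 regulators that passed in both. It had 326 CPM in Il22-only and 178 CPM in triple-zero cells of the Id2-deficient library, a log2 ratio of 0.87 (interval 0.73 to 1.01). The control values were 178 and 93.8 CPM, a ratio of 0.93 (interval 0.73 to 1.12). Maf was at 0.19 and 0.39, Hif1a at 0.21 and 0.23, and Rora at 0.17 and −0.25. Runx1, Stat3 and Ikzf3 lay between −0.35 and 0.19. Of 7 measured Th17 receptor and surface genes, Il1r1 was the 1 that passed in both. It had 79.4 and 45.9 CPM in the Id2-deficient and 71.8 and 30.9 CPM in the control library, ratios of 0.79 and 1.22. Ccr6 was at 0.33 and 0.70, Il6ra at −0.35 and 0.59, Ltb4r1 at 0.08 and −0.59, and Il18r1 at −0.48 and −0.68. Tmem176a, at −0.12 and −0.18, and Tmem176b, at −0.43 and −0.34, were not above the triple-zero cells.

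Other cytokines were scarce. Il21, the B cell help cytokine, had 129 UMIs in Il22-only and 536 in triple-zero cells of the Id2-deficient library (80.6 and 53.8 CPM), and 39 and 233 UMIs in the control library (28.3 and 10.2 CPM), log2 ratios of 0.58 and 1.47. At least 1 Il21 UMI was in 27.2% of Il22-only cells of the Id2-deficient and 11.8% of the control library, and Cxcr5 was in 42.6% and 21.7%. Tnfsf8 (CD30 ligand) was at 0.47 and 0.61, and Ltb (lymphotoxin β) at −0.10 and 0.04. Csf2, the GM-CSF gene by which Th17 cells drive this disease, was found in 0 Id2-deficient and 5 control Il22-only cells (3.11%). It was in 4% and 12.9% of Il17-only cells and in 0.204% and 3.74% of triple-zero cells. Ifng had 8 UMIs in the Id2-deficient Il22-only cells, 87.5% of them in 1 cell, and 50 in the control ones. An Ifng UMI was in 1.18% and 4.35% of Il22-only, 2% and 9.20% of Il17-only, and 1.16% and 9.75% of triple-zero cells. Ccl5, a chemokine of cytotoxic and Th1 cells, had 1 UMI in Il22-only and 608 in triple-zero cells of the Id2-deficient library, and 26 and 10043 in the control library, ratios of −6.61 (interval −11.92 to −4.13) and −4.55.

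Nkg7, a granule protein of cytotoxic and Th1 cells, was lower in Il22-only cells. It had 0 UMIs in Il22-only and 171 in triple-zero cells of the Id2-deficient library, a log2 ratio of −3.19 or lower against a floor of 3 UMIs over the group, and 78 and 4716 UMIs in the control library, a ratio of −1.87. Il7r, the survival receptor of resting T cells, had 169 and 381 CPM in the Id2-deficient and 409.8 and 812 CPM in the control library, ratios of −1.18 and −0.99. Klf2, which holds T cells in recirculation, had ratios of −1.18 and −0.88, and the chemokine receptor Ccr2 of −1.16 and −1.27. Ahnak, a large scaffold protein, was at −1.34 and −0.96, Arl4c, a small GTPase, at −0.94 and −0.94, Tsc22d3, a glucocorticoid-induced gene, at −1.16 and −0.87, and Gm2682 at −1.41 and −1.11. Of 13 measured naive and central memory genes, 3 were lower and 0 higher in both libraries, with medians of −0.57 and −0.09.

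Tfh genes showed a difference between the libraries in this comparison. Of 12 measured, 1 was higher in the Id2-deficient library, median 0.16, and 10 were higher in the control library, median 0.99. Tox2 was the gene that passed in both, at 0.92 and 1.89. In the control library Cxcr5 had 42.1 CPM in Il22-only and 14.0 CPM in triple-zero cells, a ratio of 1.59, and Pdcd1 had 83.4 and 34.5 CPM, a ratio of 1.28. The Id2-deficient values of Cxcr5 were 106 and 84.4 CPM, a ratio of 0.33, and Pdcd1 had 118 and 103 CPM, a ratio of 0.19. By point value the Il22-only cells had the higher level of both genes in each library, while the triple-zero cells of the Id2-deficient library were nearer to them. In cells of 3000 to 10000 UMIs the list medians were 0.17 and 1.14. Thinned to 2000 UMIs before the limits, they were −0.24 in the Id2-deficient and 0.67 in the control library. With 1 library of each genotype the difference between the libraries was not tested.

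Cell division genes were higher in Il22-only cells, and their ratios changed with which cells were compared. Of 18 measured cell cycle genes 14 were higher in Il22-only cells of the Id2-deficient and 16 in those of the control library, 13 of them in both, with list medians of 1.15 and 0.86. Pclaf, a partner of the replication clamp PCNA, had 234 and 39.8 CPM in the Id2-deficient and 237 and 86.3 CPM in the control library, ratios of 2.56 and 1.46. Birc5 (survivin, of the mitotic spindle) was at 1.43 and 1.35, Tyms at 1.81 and 1.31, and the histone genes Hist1h1b, Hist1h2ap, Hist1h2ae, Hist1h2an and Hist1h2bj, made in S phase, between 1.09 and 2.82. The histone genes have near-identical copies, so their single values are uncertain. A UMI of Mki67 or Top2a, markers of dividing cells, was in 27.2% and 30.4% of Il22-only cells, against 18.8% and 21.1% of triple-zero cells. Il22-only cells were also deeper than triple-zero cells, with medians of 7668 and 6361 against 6049 and 5269 UMIs. In cells of 3000 to 10000 UMIs alone the cell cycle medians against triple-zero cells were 0.02 and −0.02. There Birc5 was at −0.55 and 1.31 and Hist1h1b at 0.25 and −3.03. In both libraries 12 genes in place of 56 were higher, 4 of them among the 56. Without cells with an Mki67 or Top2a UMI, an alternative chosen after seeing the data, the medians were −0.16 and 0.06, and 9 genes were higher. With each cell given equal weight 22 genes were higher. The lower genes numbered 20 at 3000 to 10000 UMIs, 17 of them among the 27. Thinned to 2000 UMIs before the limits, 71 genes were higher and 48 lower, and the cell cycle medians were 0.69 and 1.102, so the alternatives for depth differ and its part cannot be told apart.

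**Figure D4:**
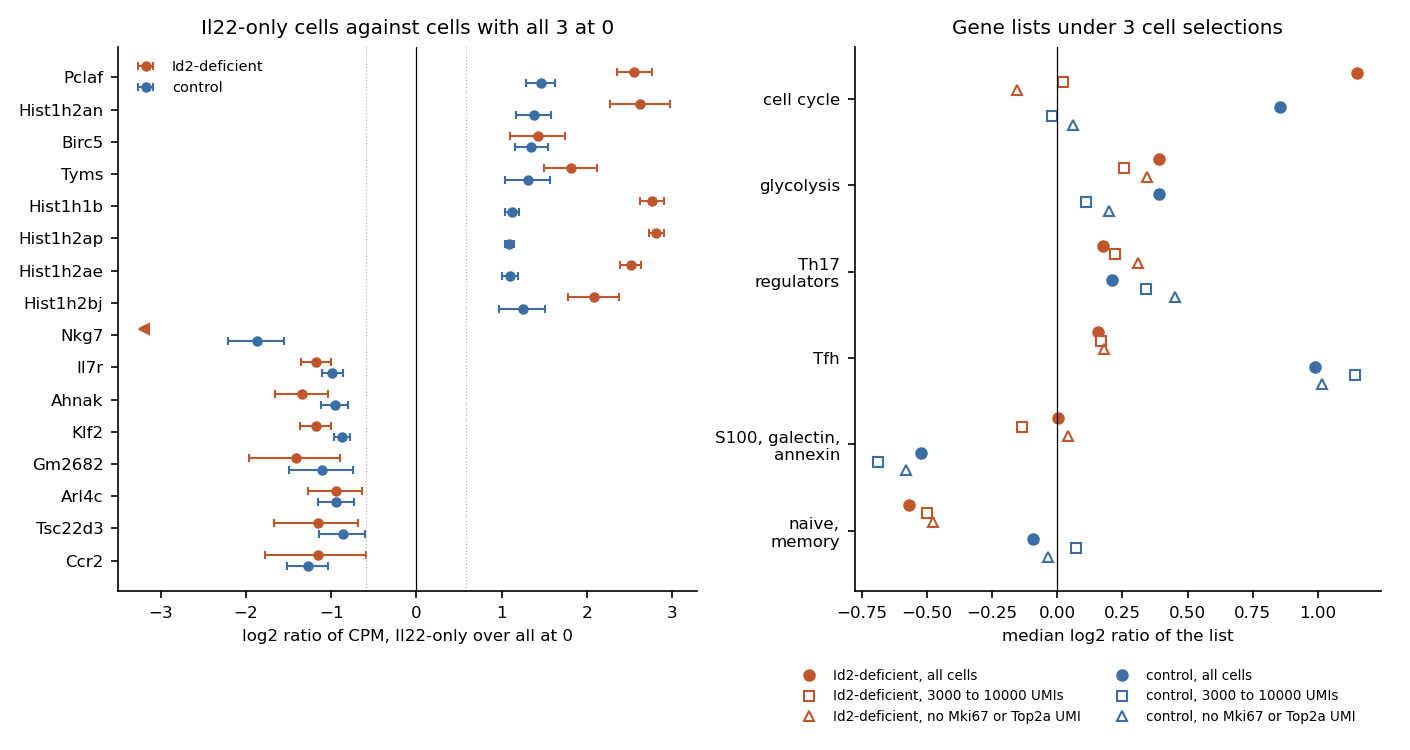
Left, log2 ratio of CPM, Il22-only over triple-zero cells (x axis), for the 8 highest and 8 lowest genes, with exact 95% intervals for counting error and dotted lines at 1.5-fold; the triangle marks Nkg7, at 0 UMIs in the Id2-deficient Il22-only cells, drawn at the floor of 3 UMIs. Right, median log2 ratio of 6 gene lists with all cells (filled circles), cells of 3000 to 10000 UMIs (squares) and cells without Mki67 or Top2a UMIs (triangles); the cell cycle medians of 1.15 and 0.86 move to near 0, and the Tfh median of the control library stays near 1.

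Within Il22-only cells, mitochondrial transcripts, Th17 regulators, Il21 and Tnfsf8 were higher in the Id2-deficient library, and 11 of 13 S100, galectin and annexin genes were lower. Of 2730 genes with a mean of at least 50 CPM, 216 (7.91%) were higher and 234 (8.57%) lower with Id2 deficiency, at a median log2 ratio of −0.08. Centred on that median the counts were 286 higher and 158 lower. The same 2730 genes gave 268 higher (9.82%) and 378 lower (13.8%) in Il17-only cells, and 268 higher (9.82%) and 237 lower (8.68%) in triple-zero cells, so such ratios were found in all 3 groups of cells. Id2 stood at 1 UMI against 229, a log2 ratio of −8.05 (interval −13.36 to −5.56).

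The highest genotype ratios in Il22-only cells were those of mitochondrially encoded transcripts and of AY036118 and Gm42418, loci known to take up ribosomal RNA reads. mt-Co3 was at 1.77, mt-Atp6 at 1.68, mt-Nd2 at 1.62 and mt-Nd1 at 1.54, and of 12 measured mitochondrially encoded genes 10 were higher and 0 lower, median 0.99. AY036118 was at 2.21, Gm42418 at 1.72, Lars2, a mitochondrial leucyl-tRNA synthetase, at 1.69, and Hspa1b, a heat shock protein, at 1.92. Triple-zero cells gave like values, with AY036118 at 2.35, Gm42418 at 1.69, mt-Co3 at 1.76 and Hspa1b at 1.73. The median share of mitochondrial UMIs, 4.12% against 1.77% in Il22-only cells, moves with the libraries and cannot be told apart from the genotype.

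Of 14 measured migration and adhesion genes 6 were lower and 2 higher in Id2-deficient Il22-only cells, median −0.50. Ccr2, a chemokine receptor of inflammatory monocytes and T cells, had 16.9 CPM in Id2-deficient and 108 CPM in control Il22-only cells, a log2 ratio of −2.68 (interval −3.33 to −2.08). Actn2, an actin crosslinker, had 16.3 and 115 CPM, a ratio of −2.83. Acsbg1, a fatty acid activating enzyme, was at −2.38, Ahnak at −2.08, Klf2 at −2.04, the kinase Pim1 at −1.89, Vim at −1.88 and the membrane protein Emp3 at −1.74. Of 13 measured S100, galectin and annexin genes 11 were lower, median −1.13, against medians of −1.14 in Il17-only and −1.73 in triple-zero cells. In triple-zero cells Ccr2 was at −2.79, Actn2 at −2.42 and Klf2 at −1.74. The lowest member of the list was Lgals3 (galectin 3), with 14 and 139 UMIs and a ratio of −3.53, though 64.3% of the 14 UMIs lay in 1 cell.

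Th17 regulators were mostly higher in Id2-deficient Il22-only cells, 5 of 8 passing 1.5-fold and 0 being lower, at a median of 0.70, against 0.38 in Il17-only and 0.66 in triple-zero cells. Stat3, the signal transducer of interleukins 6, 21 and 23, had 81.9 CPM in Id2-deficient and 42.1 CPM in control Il22-only cells, a ratio of 0.96 (interval 0.50 to 1.43). Batf had 326 and 178 CPM, a ratio of 0.87, Runx1 was at 0.77, Maf at 0.72 and Hif1a at 0.68. Ikzf3 was at 0.33 and Rora at 0.05. Of 6 measured Th17 receptor and surface genes 2 were lower and 0 higher, at a median of −0.51. The medians were 0.06 in Il17-only and −0.42 in triple-zero cells. The 2 lower genes were Tmem176b and Tmem176a, and the receptors differed in sign. Tmem176b was at −1.55, Tmem176a at −1.18, Il18r1 at −0.58, Ccr6 at −0.44, Il1r1 at 0.14 and Il6ra, the interleukin 6 receptor, at 0.56. Iltifb differed little between genotypes in Il22-only cells, with 110 UMIs in the Id2-deficient and 93 in the control library, a ratio of 0.03 (interval −0.38 to 0.44). In triple-zero cells its ratio was 1.33 (interval 0.96 to 1.70).

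Il21 and Tnfsf8 were the 2 of 3 measured cytokine genes that were higher in Id2-deficient Il22-only cells. Il21 had 80.6 CPM in Id2-deficient and 28.3 CPM in control cells, a log2 ratio of 1.51 (interval 0.98 to 2.07), and Tnfsf8 had 476 and 192 CPM, a ratio of 1.31 (interval 1.11 to 1.52). Ltb was at −0.16. Of 13 measured Tfh genes 8 were higher and 0 lower in Il22-only cells, median 0.67, against 13 higher, median 1.24, in Il17-only cells and 12 higher, median 1.51, in triple-zero cells. Cxcr5 was at 1.34 in Il22-only and 2.59 in triple-zero cells, Pdcd1 at 0.49 and 1.58, and Icos, a costimulatory receptor, at 0.34 and 1.26. Id3, a relative of Id2 that also restrains E proteins, was at 0.79 in Il22-only and 2.43 in triple-zero cells. Cxcr5, Pdcd1, Icos and Id3 were chosen after their values were seen. The difference between the cell groups was not tested, since each ratio comes from the same 2 libraries. Cell cycle genes gave 0 higher and 4 lower of 22, median −0.12, in Il22-only cells, against medians of −0.79 in Il17-only and −0.56 in triple-zero cells.

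**Figure D5:**
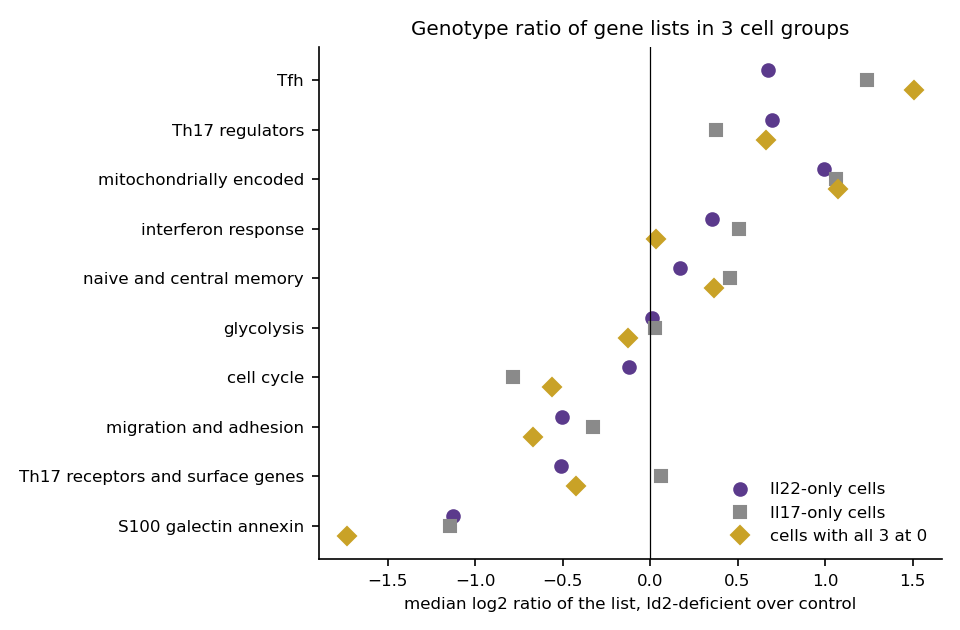
Median log2 ratio of Id2-deficient over control CPM (x axis) of 10 gene lists, in Il22-only, Il17-only and triple-zero cells; each point is the median over the measured genes of a list, from 1 library of each genotype, with no error bar. The Tfh median is 0.67 in Il22-only cells and 1.51 in triple-zero cells, and the S100, galectin and annexin median lies below −1 in all 3 groups.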

How the data were processed

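The deposited counts are UMI counts per gene and cell barcode in 10x matrices; per the file headers they were written by Cell Ranger 5.0.1, while the submitters' processing notes name Cell Ranger 1.3 and the genome build mm10. Cell calling, the treatment of reads that match several genes, and the use of strand are unknown from the sources used here. Both tables hold 32285 genes, of which 32158 are in the GENCODE M21 annotation of GRCm38, the source of coordinates and sequences; 38 symbols occur more than once, and genes were kept apart by ID. The names that RefSeq gives as synonyms were used for 1 gene.

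The cells, gene lists, limits and comparisons were chosen with earlier results of these data known, and a pattern those results already show is no independent support. Cells were grouped by the limits given in the results, UMIs were summed per library and cell group, and CPM is UMIs per 1000000 of that sum. A log2 ratio has an exact conditional binomial interval, and a group at 0 is set to a floor of 3 UMIs over the group. The calculation was tested on simulated data. Genes named are, for each comparison, 8 genes on each side, ranked by the interval bound nearer to 0 in the library where it was nearer, leaving out T cell receptor and immunoglobulin segments, sex-linked marker genes and genes with at least 25% of a group's UMIs in 1 cell. Every measured Th17 regulator, Th17 receptor and cytokine gene and the extremes of other lists were added, except for items that are not reported here. Genes outside this rule that appear beside them (among them Csf2, Ahr, Il23r, Ifng, Cxcr5, Pdcd1, Icos and Id3) were chosen after their values were seen. Of the symbols in the marker and gene lists 2 were not found in the tables. Scrublet marked 8 Id2-deficient (0.414%) and 2 control cells (0.0406%), far too few, so doublets were largely not removed; in an alternative the top 4% by score were taken out. Software was Python 3.11.15, numpy 2.4.6, scipy 1.17.1, pandas 2.3.3, scanpy 1.11.5 and matplotlib 3.10.9.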

Additional observations from a re-analysis of the deposited data

Results flagged for a closer look

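Genes whose ratio had opposite signs in the 2 libraries, each with a counting interval away from 0, are given here; none of these differences was tested. Egr1, an immediate early gene, was lower in Il22-only than in Il17-only cells of the Id2-deficient library (log2 ratio −0.87, 112 and 62 UMIs, 70.0 and 128 CPM) and higher in the control library (1.41, 42 and 19 UMIs, 30.5 and 11.4 CPM), where 1 cell held 45.2% of the 42 UMIs. Ifitm3, an interferon-induced gene, was higher in Il22-only than in triple-zero cells of the Id2-deficient library (1.36, 77 and 187 UMIs) and lower in the control library (−2.08, 67 and 4672 UMIs). In the Id2-deficient library 1 Il22-only cell held 74.0% of the 77 UMIs. Id3 was lower in Il22-only than in triple-zero cells of the Id2-deficient library (−0.65, 150.03 and 235 CPM) and higher in the control library (1.00, 87.0 and 43.5 CPM), and no cell held more than 7.50% of its UMIs.

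Barcodes over the mitochondrial limit are outside every comparison. In the Id2-deficient library 13 of them had an Il22 UMI, and in the control library 0 did, of 525 and 3 such barcodes.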

How the results depend on the processing

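No paired analysis was possible because each genotype has 1 library and the labels give no replicate numbers that pair cells. Of the list medians recomputed, 1379 stayed within their counting range, 105 moved and 4 reversed. Of the values of named genes 1058 stayed, 201 moved and 19 reversed. Alternatives that changed only the limit on mean CPM repeated the main medians and gene ratios, since that limit does not enter them. Their values could only be counted as stayed, so the numbers that stayed overstate how stable the results were. The cause of the moves and reversals was not tested, except that fewer UMIs or genes enter some alternatives by construction. The share of Il22-only cells (9.84% Id2-deficient, 4.11% control) was 3.78% and 1.71% after thinning to 2000 UMIs, 3.67% and 1.097% with at least 2 Il22 UMIs, and 15.6% and 6.38% with Il22 and Iltifb summed; under the other alternatives it stayed within the main counting interval, and the Id2-deficient share was the higher under each.

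Against Il17-only cells, 45 genes were higher and 40 lower. These numbers were 132 and 119 thinned, 99 and 70 with at least 2 Il22 UMIs, 110 and 99 at a mean of at least 20 CPM, and 3 and 12 at 200 CPM. Thinned, 16 of the 45 and 14 of the 40 passed again, and in cells of 3000 to 10000 UMIs 18 and 29. Without Mki67 or Top2a UMIs 22 and 27 passed again, and with cells weighted equally 23 and 35. Against triple-zero cells, 56 genes were higher, against 22 with cells weighted equally, 12 in cells of 3000 to 10000 UMIs and 9 without Mki67 or Top2a UMIs. Of the 56, 18, 4 and 4 passed again in these settings, and 19 thinned. The lower genes numbered 27, against 48 thinned and 17 with Iltifb summed, where 12 and 13 of the 27 passed again. Higher and lower genes numbered 147 and 72 with at least 2 Il22 UMIs, 128 and 52 at 20 CPM, and 9 and 6 at 200 CPM. Between genotypes, 216 genes were higher and 234 lower, against 513 and 575 thinned, 579 and 483 at 20 CPM, and 47 and 53 at 200 CPM. Thinned, 141 of the 216 and 138 of the 234 passed again.

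In cells of 3000 to 10000 UMIs Tyms against Il17-only cells turned to −1.004 in the control library. Against triple-zero cells Hist1h2an (−0.022), Birc5 (−0.55), Hist1h2ap (−0.67) and Hist1h2ae (−0.17) turned in the Id2-deficient library, and Hist1h2an (−1.50), Tyms (−0.67), Hist1h1b (−3.03), Hist1h2ap (−2.04), Hist1h2ae (−0.71) and the cell cycle median (−0.020) in the control library. Thinned, the cell cycle median against Il17-only cells was −0.20 in the Id2-deficient library, P2rx7 (−0.98), Tbc1d4 (−0.53) and Marcksl1 (−0.98) turned in the control library, and the Id and E protein median between genotypes was −0.019. Without Mki67 or Top2a UMIs Tyms against Il17-only cells was −0.34 in the control library. Against triple-zero cells Pclaf (−1.04), Hist1h2ap (−0.73) and the cell cycle median (−0.16) turned in the Id2-deficient library, and Tyms (−0.49), Hist1h1b (−0.092) and Hist1h2ap (−0.54) in the control library. The smallest group was the 50 Il17-only cells of the Id2-deficient library.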

Other observations

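T cell receptor segments were read in part of the Il22-only cells. A Trbv segment, the variable part of the β chain, was found in 80 of 169 Id2-deficient and 76 of 161 control Il22-only cells. Trbv2 was the most frequent in both, in 15 of 80 (18.8%, interval 10.9% to 29.0%) and 15 of 76 cells (19.7%, interval 11.5% to 30.5%), against 13.3% and 14.6% of the triple-zero cells with a segment, whose values lie within those intervals. Trbv26 followed in the Id2-deficient library with 15.0% and Trbv12-2 in the control library with 15.8%. Trav6-7-dv9 was the most frequent α chain segment of Id2-deficient Il22-only cells, in 11 of 82 (13.4%).

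Within Il22-only cells, some genes moved with the number of Il22 UMIs. Il1r1 stood at 58.8, 119 and 92.7 CPM in Id2-deficient cells with 1, 2 and 3 or more Il22 UMIs, and at 57.5, 99.8 and 104 CPM in control cells. Tox2 stood at 119, 141 and 173 CPM in Id2-deficient and 60.7, 105 and 116 CPM in control cells, and Il21 at 56.4, 70.5 and 127 CPM and 22.4, 38.8 and 42.4 CPM. Pclaf stood at 118, 63.1 and 524 CPM in Id2-deficient and 168, 388 and 381 CPM in control cells. These genes were chosen after their values were seen, and the part of depth was not tested.

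Of 12 measured glycolysis genes, 4 in the Id2-deficient and 1 in the control library were at least 1.5-fold higher in Il22-only than in triple-zero cells, against 3.3% and 4.78% of all genes, and the list medians were 0.39 in both. Tpi1, triosephosphate isomerase, passed in both, at 0.85 and 0.75.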
